A study of Rattus norvegicus with 12 samples.

Results

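Livers of obese rats that ate leucine-supplemented casein were compared with livers of rats that ate complete dairy protein. The comparison takes the 8 arrays whose titles name the leucine or the dairy diet, 4 of each, out of 12 in the series. The other 4 came from rats on casein alone, the study's control, whose values are given where they help to place the other diets. All rats were male diet-induced obese Sprague-Dawley rats, which were 12 weeks old when the diets began, ate them freely for 8 weeks and were sampled at 20 weeks of age. Every diet was high in fat and sucrose, held 4.6 kcal per gram and drew 10% of its energy from protein. In the leucine diet that share was made of 7.1% casein and 2.9% free leucine. In the dairy diet it came from skim milk powder, and in the control diet from casein.

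Those recipes limit what the comparison can separate. Relative to the dairy diet, the leucine diet had more leucine, less intact protein, and no whey protein or other parts of skim milk, and these differences cannot be told apart. Total liver RNA was hybridised to Affymetrix Rat Gene 1.0 ST arrays, which read each gene with a set of probes. Each signal below is the deposited log2 value of a probe set, and each difference is the leucine mean minus the dairy mean, so that 1 unit is a doubling. The labels do not say whether each array is a separate rat, so p-values measure only the spread between these samples. In bulk tissue, fewer cells of a type and less RNA per cell cannot be told apart.

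The 12 arrays were much alike. Over 15310 probe sets with exactly 1 gene symbol, leucine and dairy arrays correlated with a median Pearson r of 0.967 (range 0.951 to 0.987), against 0.976 among leucine arrays and 0.961 among dairy arrays. The spread of signals was narrowest on dairy array 3, with an SD of 2.07, and on casein array 4, with 2.14. Markers of hepatocytes such as albumin and transferrin were bright on every array: their mean log2 signal was 11.97 to 12.24 on leucine arrays, 11.91 to 12.22 on dairy arrays and 12.02 to 12.35 on casein arrays. Interferon and neutrophil genes varied between the arrays of each diet, with values given beside those lists.

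Leucine is a branched-chain amino acid. It is both a building block of protein and a signal: leucine bound by the sensor Sestrin2 frees the kinase complex mTORC1 to promote ribosome production and translation. When amino acids run short, the kinase GCN2 acts through the transcription factor ATF4 to switch on genes of amino acid synthesis and uptake. The liver breaks down most amino acids that are not used for protein and turns their nitrogen into urea, and its stock of these enzymes is known to follow dietary protein.

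The diets were tested with limma, which fits every probe set with a shared estimate of spread. No probe set passed an adjusted p of 0.05 (0 of 15310, or 0%), and the smallest adjusted p was 0.604. At an unadjusted p of 0.05, 1064 probe sets passed, which is 6.95% where 5% are due by chance. Of these, 559 had higher signals on the leucine arrays (3.65%) and 505 had lower ones (3.3%). That split depended on scaling and on single arrays. With each array centred on its median it was 689 higher and 331 lower. It turned round without dairy array 3 (314 and 530), leucine array 1 (338 and 383) or leucine array 2 (321 and 374), with array weights (967 and 1180) and after quantile normalization (607 and 663). The 4 leucine values lay entirely above the 4 dairy values for 313 probe sets and entirely below them for 466. Centring turned this split round too, to 437 above and 295 below. Reduced to the brightest probe set of each of 14506 genes, 47.8% of genes had a higher mean with leucine, and the median difference was -0.01. Unadjusted p-values under 0.05 were found for 3.72% of genes in the higher direction and 2.99% in the lower, and non-overlapping values for 2.02% and 2.76%. These are the backgrounds for the gene lists below, in which "passed" means an unadjusted p under 0.05. No member of any list passed after adjustment. Some genes below were named wholly or partly for being free of overlap, so that feature is no finding about them. They include Gpt, Otc, Oat, Prodh, Aadat, Pck2, Rpl41, Rps9, Rps12 and Ifi27l2b. In each list up to 4 members were named for the largest limma t, in size, of this same comparison. That choice favours values without overlap, so for those genes too a lack of overlap is not separate evidence.

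**Figure D1:**
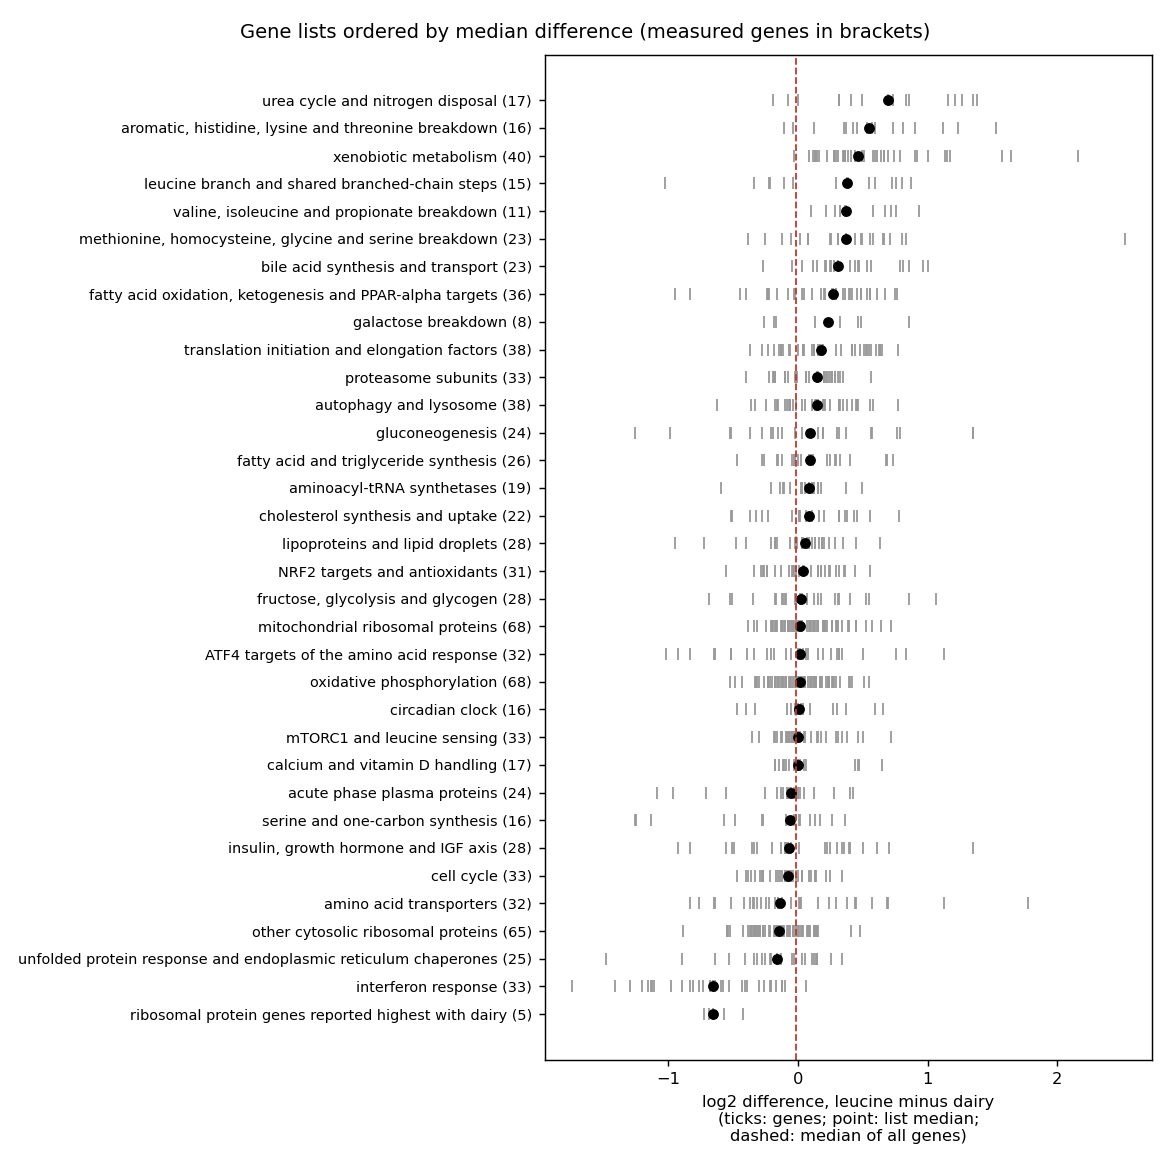
Log2 differences, leucine minus dairy, for the genes of 34 pathway lists, ordered by list median. Ticks are genes, points are medians and the dashed line is the median of all 14506 genes. Nitrogen disposal, with a median of 0.70, lies at the top, and the interferon and selected ribosomal protein lists, both at -0.65, lie at the bottom.

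Enzymes that remove nitrogen from amino acids had the highest median of all lists. Of 17 measured genes of the urea cycle and nitrogen disposal, 14 had higher means with leucine and 3 had lower ones, and 9 passed, all of them higher. The median difference was 0.70, against -0.01 over all genes. Without dairy array 2 that median was 0.45, and without both arrays of narrowest spread 7 of the 17 passed. Gpt, alanine aminotransferase, had the smallest p of all probe sets in the comparison. Its log2 signals were 9.05, 9.23, 8.37 and 8.79 on the leucine arrays, against 7.95, 7.36, 7.33 and 7.28 on the dairy arrays. The difference of 1.38 ± 0.23 (SE, n = 4 per diet) is 2.61-fold (limma adjusted p = 0.604). Every leucine value was above every dairy value, a feature for which Gpt was partly named. Casein arrays averaged 8.35, between both.

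Otc, the urea cycle enzyme that joins ornithine and carbamoyl phosphate, had signals of 9.75, 9.77, 9.64 and 9.43 with leucine, against 9.07, 8.35, 8.17 and 8.38 with dairy. The groups did not overlap, and the closest pair was leucine 4 and dairy 1. Oat, ornithine aminotransferase, had 8.65, 8.62, 7.78 and 8.43 with leucine, against 6.75, 6.83, 7.30 and 7.75 with dairy. Leucine 3 and dairy 4 almost met, 0.03 apart, while the other 3 leucine values stood well clear. Prodh, proline dehydrogenase, which begins proline breakdown, had 9.87, 10.40, 9.54 and 9.30 with leucine, against 9.05, 8.02, 8.86 and 8.13 with dairy. Its groups did not overlap either. The differences were 1.16 ± 0.26 for Otc, 1.21 ± 0.27 for Oat and 1.26 ± 0.29 for Prodh (SE, n = 4 per diet), each with a limma adjusted p of 0.604.

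The remaining enzymes of the cycle differed by less. Ass1, which makes argininosuccinate, averaged 12.15 ± 0.53 with leucine and 11.32 ± 0.28 with dairy (SD, n = 4 each). Leucine 3, at 11.43, lay within the dairy range of 10.94 to 11.54, and the other 3 leucine values were above it. Cps1, the entry enzyme of the cycle, averaged 12.43 ± 0.41 with leucine and 12.02 ± 0.15 with dairy, and its groups overlapped. Asl and Arg1, which carry out the closing steps and were picked here after their values were seen, differed by 0.73 and 0.49. Got1, the cytosolic aspartate aminotransferase, had 10.58, 10.74, 8.43 and 10.30 with leucine, against 8.93, 8.02, 8.44 and 9.26 with dairy. Again 3 leucine arrays were above all dairy arrays and leucine 3 was among them.

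On casein the nitrogen genes were near the leucine level. Both test diets share the casein arrays as a reference, so the values are only set side by side: the list's median difference from casein was -0.10 for leucine and -0.65 for dairy. The mean signal of the list was 10.12, 10.23, 9.26 and 9.82 on leucine arrays, 9.49, 8.84, 9.24 and 9.27 on dairy arrays, and 9.63 to 9.99 on casein arrays. Leucine 3 was within the dairy range and the other 3 leucine arrays were above it. The same leucine array had the highest neutrophil marker level of its diet. Among dairy arrays those levels were highest on arrays 4 and 2, whose nitrogen means were 9.27 and 8.84. Any link between neutrophil and nitrogen levels was not tested. Without leucine array 3 the nitrogen list's median difference was 0.98.

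**Figure D2:**
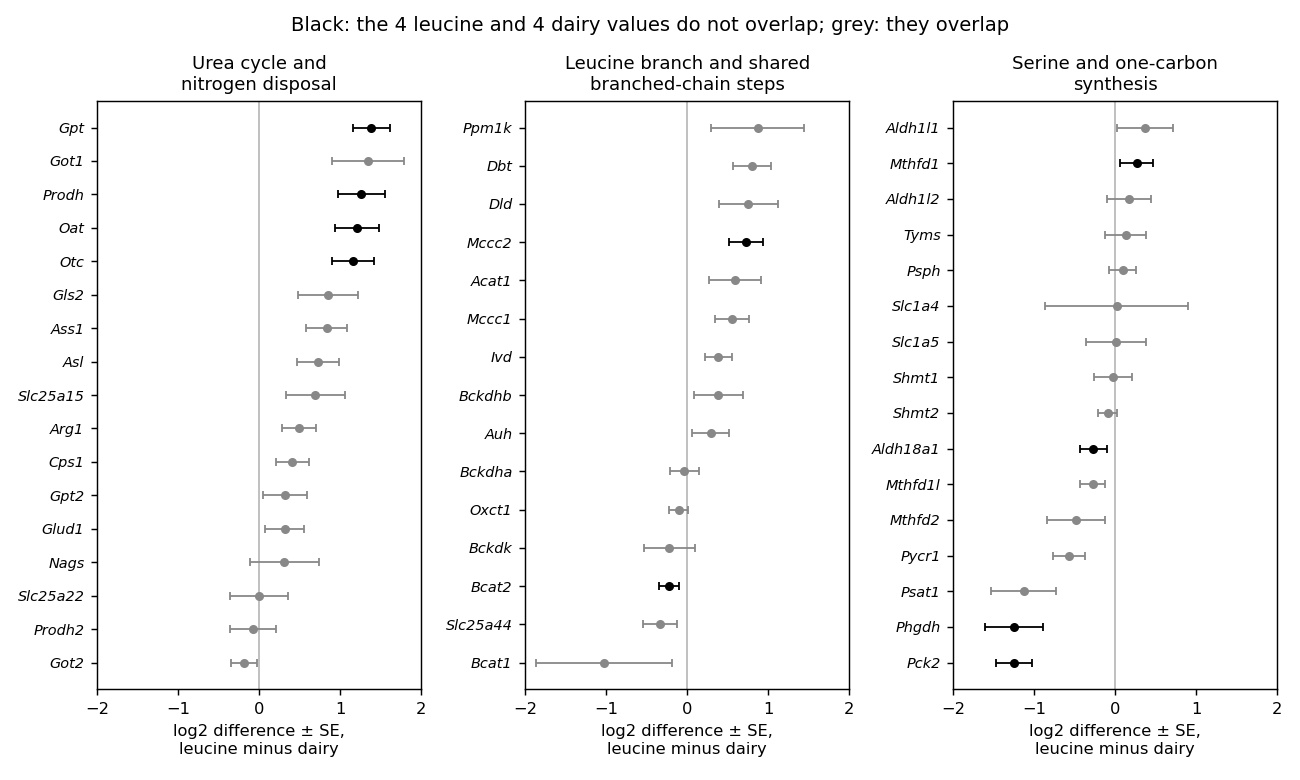
Log2 difference, leucine minus dairy, with its SE for every measured gene of 3 amino acid lists. Black marks genes whose 4 leucine and 4 dairy values do not overlap, as for Gpt at 1.38 and Pck2 at -1.25, and grey marks the others.

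Genes of leucine's own breakdown differed in direction. The aminotransferase that starts the route and the branched-chain ketoacid dehydrogenase that commits carbon to it are followed by isovaleryl-CoA dehydrogenase and methylcrotonyl-CoA carboxylase. Of 15 measured genes on this route and the shared steps, 9 were higher and 6 lower, 4 passed, all higher, and the median difference was 0.38. Without leucine array 2 the median was 0.19. The list's median difference from casein was -0.17 for leucine and -0.49 for dairy, and 4 of the 15 genes had a higher mean with leucine than with casein. Mccc2, the beta subunit of methylcrotonyl-CoA carboxylase, had 7.98, 8.50, 8.18 and 7.75 with leucine, against 7.69, 7.13, 7.36 and 7.33 with dairy. No leucine value lay within the dairy range, although leucine 4 was only just above dairy 1. Its difference was 0.73 ± 0.21 (SE, n = 4 per diet; limma adjusted p = 0.657).

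The partner subunit Mccc1 differed by 0.55 ± 0.21, and Ivd, isovaleryl-CoA dehydrogenase, by 0.39 ± 0.16 (SE), with overlapping values in each. Dbt, the core subunit of the dehydrogenase, had 9.46, 9.07, 8.15 and 8.99 with leucine, against 8.16, 8.07, 7.96 and 8.26 with dairy. Only leucine 3 lay in the dairy range. At the start of the route, Bcat1, the cytosolic branched-chain aminotransferase, picked after its values were seen, had 3.35, 3.39, 5.02 and 4.08 with leucine, against 3.64, 7.23, 3.71 and 5.38 with dairy. Its difference of -1.03 ± 0.84 (SE) was the widest of the list in size and did not pass, and it was -0.28 without dairy array 2. Bcat2, the mitochondrial branched-chain aminotransferase, had 4.74, 4.84, 5.0 and 4.90 with leucine, against 5.0, 5.03, 5.04 and 5.31 with dairy. The Bcat2 groups met at 5.0 without overlapping, and all 8 values were below the median probe set's mean of 5.33, where an array resolves differences poorly. Bckdk, the kinase that switches the dehydrogenase off, averaged 7.43 ± 0.67 with leucine and 7.65 ± 0.27 with dairy (SD, n = 4 each), well within its spread.

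All 11 measured genes of valine, isoleucine and propionate breakdown had higher means with leucine. Of these, 4 passed and the median difference was 0.37 (0.59 without dairy array 1). The median difference from casein was -0.01 for leucine and -0.52 for dairy. Pcca, the alpha subunit of propionyl-CoA carboxylase, had 8.22, 8.12, 7.79 and 7.40 with leucine, against 7.38, 6.97, 7.07 and 7.22 with dairy. Its values just cleared each other, by 0.02 between leucine 4 and dairy 1. Mcee, which acts next on methylmalonyl-CoA, was also free of overlap, with a difference of 0.75 ± 0.28 (SE). Acadsb, which oxidises the isoleucine product, differed by 0.93 ± 0.28 and Aldh6a1, of the valine branch, by 0.67 ± 0.22, and in both genes dairy 1 was the dairy array that reached the leucine range.

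Enzymes for the other amino acids had higher signals with leucine as well. Of 23 measured genes of methionine, homocysteine, glycine and serine breakdown, 19 were higher, 8 passed and none passed in the lower direction, with a median of 0.37. The median difference from casein was -0.02 for leucine and -0.44 for dairy. The widest difference of any gene in the comparison was that of Sds, serine dehydratase, which turns serine into pyruvate. Sds signals were 9.35, 9.79, 5.08 and 8.14 with leucine, against 6.78, 4.77, 4.88 and 5.85 with dairy. Leucine 3 was as low as the dimmest dairy arrays, so that the mean difference of 2.52 has an SE of 0.85 (limma adjusted p = 0.657). Bhmt, which makes methionine from homocysteine and betaine, had a tighter pattern: 12.68, 12.81, 12.16 and 12.22 with leucine, against 11.93, 11.75, 11.91 and 11.47 with dairy. No values overlapped, and casein averaged 12.89, above both. Cdo1, cysteine dioxygenase, and Cth, which releases cysteine from cystathionine, differed by 0.66 ± 0.21 and 0.83 ± 0.29 (SE), and dairy 1 reached the leucine range in both.

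Of 16 genes that break down aromatic amino acids, histidine, lysine and threonine, 14 were higher and 7 passed, all higher. The median was 0.55, and without both arrays of narrowest spread all 16 were higher and 5 passed. The median difference from casein was -0.08 for leucine and -0.69 for dairy. Hpd, which oxidises the tyrosine product hydroxyphenylpyruvate, had 12.31, 12.57, 12.36 and 12.49 with leucine, against 12.06, 11.76, 11.50 and 12.04 with dairy. Aadat, which acts on both kynurenine and the lysine product aminoadipate, had 10.12, 10.31, 9.64 and 9.85 with leucine, against 9.49, 8.71, 8.44 and 8.80 with dairy. Neither gene had overlapping values. Aass, the entry enzyme of lysine breakdown, had 11.02, 11.02, 10.79 and 11.47 with leucine, against 9.27, 10.24, 9.05 and 10.80 with dairy. Dairy 4 alone reached the leucine range there.

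In serine synthesis the genes that passed had lower signals with leucine. Of 16 measured genes of serine and one-carbon synthesis, 7 were higher and 9 lower, and the 4 that passed were all lower. The list median was -0.06, and -0.21 without leucine array 4, so the other genes had no common direction. Pck2, the mitochondrial phosphoenolpyruvate carboxykinase, had the smallest p among genes that were lower with leucine. Its signals were 5.21, 5.48, 5.29 and 5.09 with leucine, against 6.91, 6.81, 6.40 and 5.96 with dairy. All dairy values were above all leucine values, and casein averaged 5.37, close to leucine. The difference of -1.25 ± 0.22 (SE, n = 4 per diet) makes dairy 2.38-fold higher (limma adjusted p = 0.604).

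Phgdh, which commits glycolytic carbon to serine, had 5.28, 4.44, 4.45 and 5.06 with leucine, against 6.67, 5.32, 6.56 and 5.67 with dairy. The groups did not overlap, by 0.04 between leucine 1 and dairy 2. Psat1, the next enzyme, had 6.25, 4.96, 4.52 and 5.52 with leucine, against 6.87, 5.53, 6.62 and 6.75 with dairy. Leucine 1 was above dairy 2, the lowest dairy array in both genes. The differences were -1.25 ± 0.36 for Phgdh and -1.13 ± 0.40 for Psat1 (SE; limma adjusted p = 0.657 each). A second, dimmer probe set of Psat1 differed by -0.26 and did not pass. Pycr1, which makes proline, differed by -0.57 ± 0.20, but at signals of 3.61 to 4.17 with leucine and 4.10 to 4.86 with dairy, near the bottom of the scale. Casein averaged 4.62 for Phgdh and 5.22 for Psat1, so for each of these enzymes dairy was the highest diet.

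These 4 genes are known targets of ATF4. The separate ATF4 list holds none of them, so its counts leave them out. Of its 32 measured genes, 18 were higher and 14 lower, 2 passed each way and the median was 0.01, ranging from -0.04 to 0.06 as single arrays were left out. Trib3, a pseudokinase that ATF4 induces, had 4.70, 4.19, 5.13 and 5.95 with leucine, against 5.77, 5.59, 5.99 and 6.30 with dairy. Leucine 4 lay in the dairy range and the other 3 below it, for a difference of -0.92 ± 0.31 (SE; limma adjusted p = 0.657). Asns, asparagine synthetase, had 5.54, 4.62, 6.12 and 6.60 with leucine, against 6.50, 7.24, 6.17 and 7.05 with dairy, and its difference of -1.02 ± 0.48 (-0.65 without leucine array 2) did not pass. The members that passed in the higher direction were Cth and the amino acid transporter Slc38a2. Fgf21, a secreted hepatokine, spanned 5.71 to 7.08 with leucine and 5.42 to 9.19 with dairy. Dairy array 3 held the top value, and the Fgf21 difference was -0.83, or -0.17 without that array.

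ATF4 pairs with C/EBP proteins on a composite element whose common form is TGATGNAA. RefSeq promoters (GRCr8) were searched for it over the 250 bases before each gene's start, on both strands, and each promoter was counted once. It was found in 3 of 12 promoters of the serine list (25.0%) and 7 of 28 of the ATF4 list (25.0%), against 1139 of all 33469 promoters (3.4%). For the lists only the first recorded promoter of each gene counted, while the background took every promoter. The list and background shares therefore have unlike units. The windows of 3 genes that had lower signals with leucine are shown, written along the gene's strand, with the motif or its reverse complement in capitals:
Pck2, chr15:32997603-32997651, plus strand: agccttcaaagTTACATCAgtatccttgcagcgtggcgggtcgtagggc
Pycr1, chr10:106420906-106420973, minus strand: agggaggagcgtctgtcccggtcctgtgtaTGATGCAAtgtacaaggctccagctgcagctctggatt
Trib3, chr3:161275534-161275584, minus strand: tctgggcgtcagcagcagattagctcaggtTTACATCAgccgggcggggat
In Pck2 the motif ends 232 bases before the start, in Pycr1 124 and in Trib3 14. Pck2 and Trib3 hold the reverse form and Pycr1 the forward form. The promoters of Fgf21, Nupr1, Chac1, Jdp2, Slc1a4, Slc7a1 and Herpud1 also hold a match, and those genes did not pass. No match was recorded for Phgdh or Psat1, which were lower with leucine and passed. Only 12 of the 16 measured genes of the serine list had a promoter, and a promoter of either gene may not have been among them. A match describes these letters only and is not a site.

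**Figure D3:**
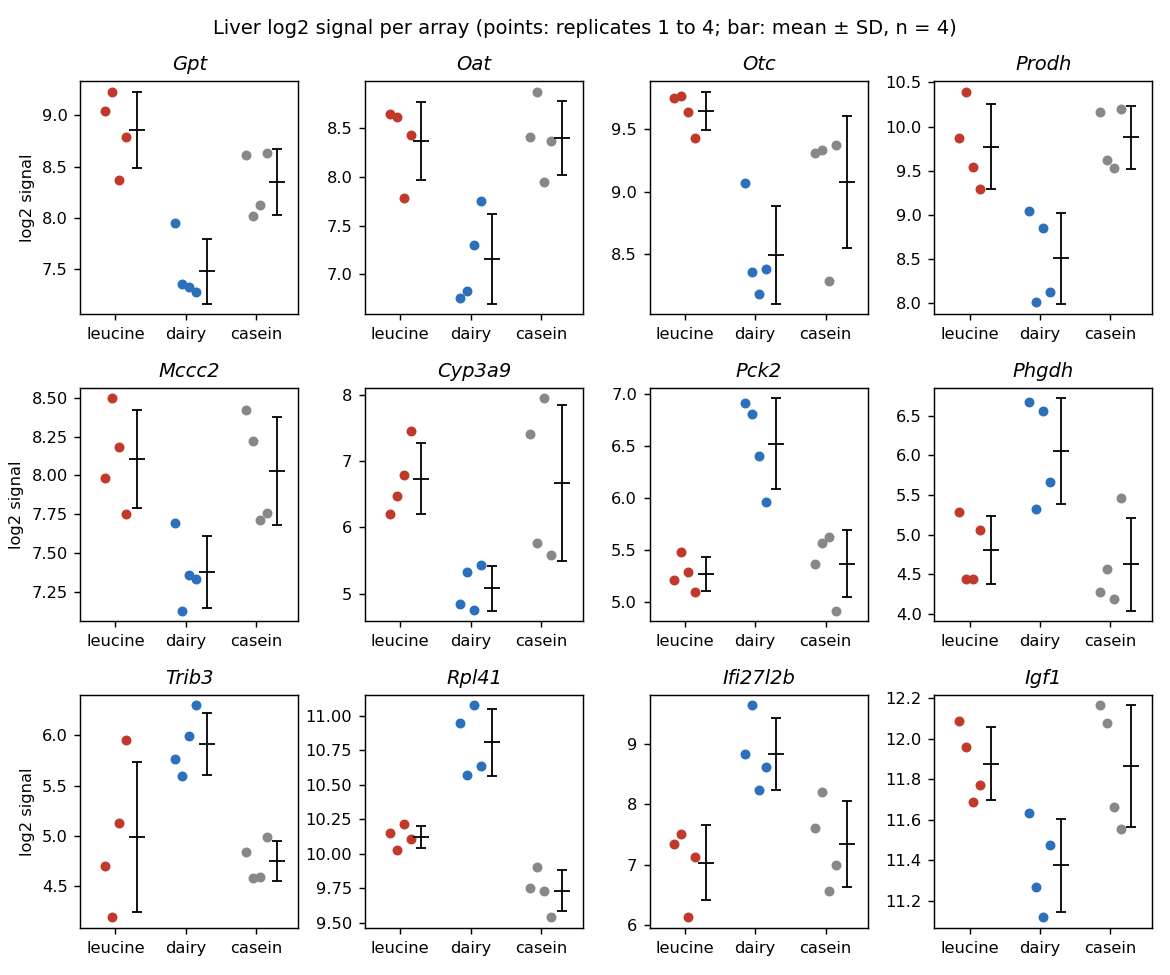
Log2 signals of 12 genes on every array. Points are replicates 1 to 4 of each diet from left to right, and bars are mean ± SD (n = 4). Gpt, Otc, Prodh and Pck2, named partly for this feature, show leucine and dairy points with no overlap. By contrast, 1 leucine point of Trib3 lies among the dairy points.

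The sensing machinery for leucine itself had no shared direction. Of 33 measured genes of mTORC1 and leucine sensing, 17 were higher and 16 lower, with a median of 0.00 (from -0.06 to 0.08 as single arrays were left out). The 1 that passed was Sar1b, a small GTPase of vesicle budding with a described role in leucine sensing, at 10.75, 10.48, 10.54 and 10.88 with leucine, against 9.95, 10.04, 9.18 and 10.59 with dairy. Dairy 4 overlapped the leucine range, and 1 of 33 is near the background share. Rps6kb1, the kinase that carries the mTORC1 signal to the ribosome, differed by 0.46 ± 0.29 (SE), or by 0.19 without dairy array 3. Castor2, a relative of the arginine sensor Castor1, differed by -0.35 ± 0.19, or by -0.22 without leucine array 4. Neither passed. Aminoacyl-tRNA synthetases, which load amino acids onto tRNA, were 13 higher and 6 lower of 19, and none passed. Their median of 0.09 became -0.13 without dairy array 3 and 0.28 without dairy array 4.

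Amino acid transporters were split. Of 32 measured, 14 were higher and 18 lower, and 4 passed in each direction. With each array centred on its median, 4 passed higher and 1 lower. Their median of -0.14 became 0.00342 without dairy array 4. Slc16a10, which lets aromatic amino acids leave the cell, had 8.58, 9.46, 8.63 and 9.82 with leucine, against 6.59, 7.53, 6.68 and 8.58 with dairy. Dairy 4 equalled the lowest leucine array to 2 decimals and the other 3 dairy arrays were lower, for a difference of 1.78 ± 0.42 (SE; limma adjusted p = 0.604). Slc38a2, a sodium-coupled importer of small neutral amino acids, had 11.06, 10.65, 10.61 and 10.95 with leucine, against 9.42, 9.76, 8.92 and 10.66 with dairy. Again dairy 4 alone overlapped. In the lower direction, Slc43a2, a carrier of large neutral amino acids that include leucine, had 5.59, 5.76, 4.69 and 5.49 with leucine, against 7.18, 5.79, 6.08 and 5.81 with dairy. The groups were apart by 0.03. Slc7a5, which exchanges leucine across the membrane, differed by -0.64 ± 0.29 and the taurine carrier Slc6a6 by -0.76 ± 0.32 (SE).

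Ribosomal protein genes had lower signals with leucine. A set of 5, Rpl41, Rps9, Rps19, Rps15a and Rpl39, was chosen because it had been reported highest with dairy in these samples, so its direction is not independent evidence. All 5 were lower, 4 passed, and the median was -0.65. Rpl41, the smallest protein of the large subunit, had 10.15, 10.03, 10.21 and 10.10 with leucine, against 10.95, 10.57, 11.08 and 10.63 with dairy. The leucine values lay within a narrow band below every dairy value, and casein, at 9.54 to 9.90, was lower still. Among 65 other cytosolic ribosomal protein genes, 49 were lower and 16 higher, 13 passed, all lower, and the 4 values of each diet were free of overlap in 19 lower genes. The median of these 65 was -0.15. With each array centred on its median it was -0.09 and only 5 passed, whereas without both arrays of narrowest spread 61 of the 65 were lower and 22 passed.

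Rps12, of the small subunit, was the member of that larger set with the smallest p. It had 9.02, 8.62, 9.13 and 9.16 with leucine, against 10.05, 9.59, 10.22 and 9.61 with dairy. All 4 of its probe sets kept the diets apart, with differences between -0.88 and -0.83. Rps18 differed by -0.55 ± 0.15 and Rps14 by -0.39 ± 0.14 (SE), both without overlap. All 6 probe sets of Rps15a were lower and passed, although their values overlapped. Near-identical copies of ribosomal protein genes lie across the genome and a probe set may read any of them, and probe sets of 1 gene are not separate evidence.

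Other parts of the translation apparatus did not share that direction. Of 38 initiation and elongation factors, 28 were higher and 10 lower with a median of 0.18, but without dairy array 3 they were 19 and 19 with a median of 0.02. The median was 0.35 without dairy array 4 and 0.12 without leucine array 4. Eif4a2, an RNA helicase of cap-dependent initiation, differed by 0.65 ± 0.21 (SE), with dairy 4 reaching the leucine range. Of 68 mitochondrial ribosomal proteins, 39 were higher with a median of 0.02 (from -0.04 to 0.12 as single arrays were left out). Of 33 proteasome subunits, 20 were higher with a median of 0.15. It became -0.07 without dairy array 3 and 0.08 and 0.09 without dairy 1 and leucine 1. Psmb6, a catalytic subunit, was the 1 that passed: 7.06, 7.11, 7.22 and 7.21 with leucine, against 7.52, 7.54, 7.47 and 7.66 with dairy, with no overlap. Its second probe set differed by -0.17, overlapped and did not pass. For this list 1 of 33 passing is near the background share of 2.99% in the lower direction.

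Detoxification enzymes, as a list, were close to uniformly higher with leucine. Of 40 measured genes of xenobiotic metabolism, 39 had higher means and 14 passed, all higher, for a median of 0.47. Without both arrays of narrowest spread, 37 were higher and 10 passed. Many of these genes are near relatives, and probe sets of cytochrome P450 and glucuronosyltransferase families may read more than 1 member. Cyp3a9, a steroid-hydroxylating P450, had 6.21, 6.47, 6.80 and 7.45 with leucine, against 4.84, 5.32, 4.75 and 5.43 with dairy. No values overlapped, for a difference of 1.64 ± 0.48 (SE; limma adjusted p = 0.657), and casein arrays ran from 5.59 to 7.94, above every dairy value. Cyp3a23-3a1, a drug-inducible P450, had 11.01, 10.09, 10.02 and 9.96 with leucine, against 9.75, 8.76, 9.30 and 8.67 with dairy. Its groups were also apart, and leucine 1 was far above its own group.

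Ugt2b1, a glucuronosyltransferase, had 8.93, 8.42, 8.36 and 8.45 with leucine, against 8.37, 6.43, 6.47 and 6.60 with dairy. Dairy 1 stood with the leucine arrays, and the other 3 dairy arrays were below all of them. Cyp2e1, which oxidises ethanol and ketones, averaged 12.25 ± 0.30 with leucine and 11.33 ± 0.58 with dairy (SD, n = 4 each), and dairy 1 again was the array that overlapped. Cyp2c12, named after its values were seen as the widest difference of the list, had 9.54, 10.69, 7.08 and 9.55 with leucine, against 7.15, 6.43, 6.40 and 8.25 with dairy. Leucine 3 lay within the dairy range. The mean signal of the list was 9.48, 9.27, 8.85 and 9.07 on leucine arrays, against 9.02, 8.30, 8.52 and 8.47 on dairy arrays. Dairy 1 was above leucine 3 there, and the other 3 dairy arrays were below every leucine array. The list's median difference from casein was 0.15 for leucine and -0.34 for dairy.

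Bile acid genes were higher in 21 of 23, of which 3 passed. The median was 0.31, and it was 0.57 without dairy array 1 and 0.49 without leucine array 4. Acox2, the peroxisomal oxidase that shortens the bile acid side chain, had 10.14, 10.45, 10.33 and 10.05 with leucine, against 10.00, 9.0, 9.43 and 9.36 with dairy. The groups were apart by 0.04, with dairy 1 the closest, and differed by 0.79 ± 0.21 (SE; limma adjusted p = 0.657). Slco1b2, which takes bile acids and drugs up from blood, differed by 0.86 ± 0.31 and Abcg5, which exports sterols into bile, by 0.81 ± 0.37, or by 0.48 without dairy array 2. Cyp7a1, the enzyme that sets the pace of bile acid production, had 9.84, 9.77, 4.72 and 6.09 with leucine, against 7.32, 6.05, 6.55 and 6.47 with dairy. The leucine arrays covered 5.13 units and enclosed all dairy values, and the mean difference of 1.00 ± 1.15 (SE) did not pass.

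Lipid synthesis showed little that separated the diets. Of 26 genes of fatty acid and triglyceride synthesis 15 were higher, and of 22 genes of cholesterol synthesis and uptake 15 were higher, with none passing and a median of 0.09 in each. The sign of both medians turned when single arrays were left out. Fasn, fatty acid synthase, had 10.23, 9.48, 8.18 and 7.39 with leucine, against 10.99, 8.87, 9.38 and 7.92 with dairy, ranges that overlap widely. Acaca, acetyl-CoA carboxylase, differed by 0.02 ± 0.42 and Scd, stearoyl-CoA desaturase, by -0.26 ± 1.00 (SE). For these 3 genes the arrays of 1 diet differed by more than the diets' means. Fatty acid oxidation genes were higher in 25 of 36, with 2 passing, or in 28 with 0 passing without dairy array 3. Their median with all arrays was 0.27. That median was 0.11 without leucine array 1, 0.12 without dairy array 2 and 0.41 without dairy array 1. Ehhadh, of peroxisomal oxidation, differed by 0.67 ± 0.28, Ppargc1a, a coactivator of oxidation and gluconeogenesis, by 0.76 ± 0.33, and Cpt1a, the gatekeeper of mitochondrial fatty acid import, by 0.35 ± 0.41.

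Gluconeogenic genes were 13 higher and 11 lower of 24, with a median of 0.09 (0.04 without dairy array 3). Of these, 3 passed higher and 2 lower, with Pck2 among the lower, or 1 and 3 without dairy array 3. Pck1, the cytosolic phosphoenolpyruvate carboxykinase, averaged 11.53 ± 1.06 with leucine and 11.55 ± 0.42 with dairy (SD, n = 4 each), a difference far inside the spread. G6pc1, which releases glucose, had 12.54, 7.40, 4.83 and 7.45 with leucine, against 10.91, 8.54, 9.54 and 7.16 with dairy, a range of 7.72 units within the leucine diet. Galactose genes, of interest because milk powder holds lactose, were higher in 5 of 8 with a median of 0.23, or 0.04 without dairy array 3. Galt, which converts galactose phosphate, averaged 6.69 ± 0.20 with leucine and 6.95 ± 0.40 with dairy and did not pass. Ugp2, which makes UDP-glucose, was the 1 that passed, with a difference of 0.85 ± 0.37 (SE). Without dairy array 3, 0 galactose genes passed higher and 1 passed lower.

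The insulin, growth hormone and IGF list had 13 higher and 15 lower genes of 28. Of these, 2 passed higher and 3 lower, or 2 and 1 with each array centred on its median. The list's median of -0.07 turned to 0.10 without leucine array 1. Igf1, the growth factor that the liver secretes under growth hormone, was the 1 member with no overlap. Its signals were 12.09, 11.96, 11.69 and 11.77 with leucine, against 11.63, 11.27, 11.12 and 11.47 with dairy. The lowest leucine array was 0.05 above the highest dairy array, and the difference was 0.50 ± 0.18, or 1.42-fold (SE, n = 4 per diet; limma adjusted p = 0.657). Igfbp1, an IGF-binding protein that insulin suppresses, had 12.08, 11.12, 12.52 and 11.65 with leucine, against 8.40, 11.27, 9.72 and 12.57 with dairy, and the dairy values enclosed the leucine values. Akt1, a kinase of insulin signalling, differed by -0.35 ± 0.14 and Gsk3b, which Akt inhibits, by 0.61 ± 0.25 (SE), both with overlap. Insr, the insulin receptor, differed by 0.40 ± 0.20 (SE), and by 0.13 in a second, dimmer probe set, and neither passed.

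Interferon-response genes were lower with leucine in 32 of 33, but only 2 passed. The median of -0.65 rested on few dairy arrays: it was -0.11 without dairy array 2, -0.41 without dairy array 4 and -0.42 without leucine array 1, but -1.17 and -0.99 without dairy arrays 1 and 3. The list's mean signal was 5.69, 6.50, 7.21 and 6.89 on leucine arrays, 6.02, 8.84, 6.26 and 7.85 on dairy arrays, and 6.37, 6.56, 8.47 and 6.49 on casein arrays. Dairy 2 and 4 were above all leucine arrays, dairy 1 and 3 were below 3 of them, and casein 3 was as high as the high dairy arrays. Irf7, the regulator of interferon genes, picked after its values were seen, had 5.51, 5.51, 5.86 and 6.45 with leucine, against 6.12, 9.32, 6.28 and 7.23 with dairy. Its difference of -1.41 was -0.71 without dairy array 2.

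Among interferon-inducible genes, 2 of the Ifi27 family had values without overlap. Ifi27l2b, which the list does not hold, had 7.34, 7.51, 6.13 and 7.13 with leucine, against 8.83, 9.63, 8.23 and 8.61 with dairy. All dairy values were at least 0.72 above the highest leucine value, and the difference was -1.80 ± 0.40 (SE, n = 4 per diet; limma adjusted p = 0.604). Casein arrays ran from 6.57 to 8.21, below every dairy value. Its relative Ifi27 had 10.19, 10.43, 9.69 and 10.48 with leucine, against 10.66, 11.28, 10.72 and 10.73 with dairy, without overlap. Dairy 2 was highest for both, as for the list, but dairy 1, which was low for the list, was above dairy 4 for Ifi27l2b.

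**Figure D4:**
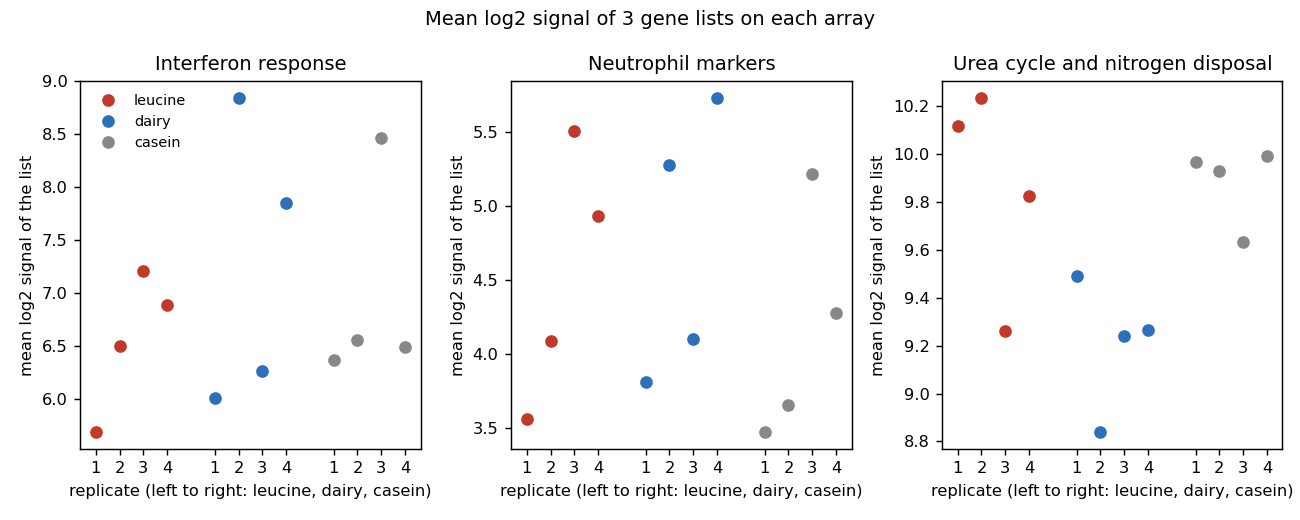
Mean log2 signal of 3 gene lists on each array, in the order leucine, dairy and casein. Interferon and neutrophil levels vary within every diet, with dairy 2 and 4, casein 3 and leucine 3 high, while 3 of 4 leucine arrays exceed all dairy arrays for nitrogen disposal.

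Markers of other cell types varied between the arrays of each diet. Neutrophil markers had mean signals of 3.56, 4.09, 5.51 and 4.93 on leucine arrays, 3.81, 5.27, 4.10 and 5.73 on dairy arrays, and 3.47 to 5.22 on casein arrays. Of the 12 measured, 3 were higher and 9 lower with leucine. None were higher without dairy array 1 or leucine array 3, and 7 were higher and 5 lower without dairy array 4 or leucine array 1. Ncf1, a subunit of the phagocyte oxidase, was the 1 that passed, at -0.94 ± 0.40 (SE). Kupffer cell and macrophage markers were 9 higher and 6 lower of 15, with differences from -0.81 to 0.94 and a median of 0.04. Without dairy array 3 they were 5 higher and 10 lower, with 1 passing higher and 4 passing lower. Without leucine array 4 they were again 5 and 10. The median was -0.15 and -0.21 in these alternatives. With all arrays, those that passed were Vsig4, a complement receptor, and Clec4f, a lectin, 2 of the markers of resident Kupffer cells in the list. Vsig4 had 8.04, 8.21, 8.23 and 8.46 with leucine, against 8.22, 6.52, 6.78 and 7.70 with dairy, and only dairy 1 reached the leucine range. Clec4f differed by 0.94 ± 0.42, or by 0.54 without dairy array 2, and its groups overlapped.

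Of 19 stellate cell and fibrosis markers 7 were higher and 12 lower, with a median of -0.17, or -0.07 without dairy array 1. Col1a1, the main collagen of scar, had 6.06, 5.90, 5.99 and 6.24 with leucine, against 6.90, 6.50, 7.03 and 5.86 with dairy. Dairy 4 lay below every leucine array, and the other 3 were above. Of 15 erythroid and blood markers 13 were higher, with a median of 0.13 that became -0.02 without leucine array 3. Tfrc, the transferrin receptor, which hepatocytes express too, was the 1 that passed and differed by 1.24 ± 0.42 (SE). The part of these cell types in the differences above was not tested.

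Several genes with no overlap belong to none of the lists above. Acsl4, which activates arachidonic acid, had 9.56, 9.65, 9.34 and 9.61 with leucine, against 9.07, 8.85, 8.76 and 8.61 with dairy. Alcam, an adhesion molecule, averaged 8.78 ± 0.31 with leucine and 7.77 ± 0.36 with dairy. Sult1c2, a sulfotransferase, averaged 7.82 ± 0.40 with leucine and 6.66 ± 0.54 with dairy (SD, n = 4 each). All were higher with leucine, as were Wasl, which promotes actin branching, at 0.84 ± 0.18, the catenin relative Ctnnal1 at 0.80 ± 0.18, and Zfp638 and Srek1ip1 at 0.95 ± 0.23 and 0.66 ± 0.16 (SE). Each had a limma adjusted p of 0.604. A second, brighter probe set of Srek1ip1 differed by 0.56, and its groups overlapped.

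In the lower direction the difference was narrower in most. Mogs, the glucosidase that starts N-glycan trimming, had 6.80, 6.73, 7.15 and 7.27 with leucine, against 7.67, 7.72, 7.66 and 7.81 with dairy, and the dairy values hardly varied. Reep5, which shapes the endoplasmic reticulum, averaged 7.52 ± 0.25 with leucine and 8.39 ± 0.22 with dairy. Chpf2, a chondroitin synthesis enzyme, averaged 6.51 ± 0.12 with leucine and 7.21 ± 0.15 with dairy (SD, n = 4 each). Limk1, a kinase that stabilises actin filaments, differed by -0.77 ± 0.19, Cacfd1 by -0.61 ± 0.14 (-0.29 in a second probe set, with overlap), Trim65, a ubiquitin ligase, by -0.59 ± 0.13, and Gngt2, a G-protein gamma subunit, by -0.57 ± 0.14 (SE), all with a limma adjusted p of 0.604. These genes were named for being free of overlap, so that feature is no finding about them.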

How the data were processed

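Affymetrix Rat Gene 1.0 ST arrays of total liver RNA gave 1 value per probe set and array. The deposited values are log2 signals. Per the submitters' processing notes the authors used Affymetrix Expression Console. Not given in the sources used here are its version, how probes were summarised and which build was used. Differences near background are understated on this scale, and precision is limited by the number of arrays.

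The platform annotation gave exactly 1 gene symbol for 15310 of 29214 probe sets, several for 323 and none listed for 13581. The 15310 were tested with limma 3.58.1 in R 4.3.3 on the deposited log2 values: group means over all 12 arrays, eBayes (9 residual and 3.45 prior degrees of freedom), two-sided, with Benjamini-Hochberg adjustment over the 15310. The fit was tested on simulated data. Lists used 1 probe set per gene, the brightest.

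Samples were grouped by the diet in their titles. Named genes were up to 12 each way with the smallest p among those without overlap and brighter than the median probe set, up to 4 per list with the largest moderated t, and 36 key genes, of which 6 had no probe set. Genes, lists and tests were chosen with earlier results of these data known. Replicate numbers were not treated as pairs: deviations of same-numbered leucine and dairy arrays correlated at 0.59, -0.30, -0.28 and 0.36. Alternatives changed the scaling, the filter, the fit and the arrays used.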

Additional observations from a re-analysis of the deposited data

Results flagged for a closer look

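In 332 groups of 4 arrays (the leucine or dairy values of a gene or of a list's mean), 24 had 1 array far from the other 3, where chance gives about 5%. On leucine array 1, Hgd (10.46), Ugt2b1 (8.93) and Cyp3a23-3a1 (11.01) were above the others. On leucine array 2, Reep5 (7.14), Rpl37a (10.38) and the mean of the serine and one-carbon list (6.25) were below them. Leucine array 3 was high in the unfolded protein response list (9.94, against 9.06 to 9.20) and low in endothelial markers (6.79). Leucine array 4 was low in the lipoprotein list (9.66).

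Dairy array 1 was the array that stood apart most often. It was high for Gpt (7.95), Trim65 (6.89), Ivd (9.02), Ugt2b1 (8.37) and Ins1 (6.79, against 4.45 to 4.84), and low for Limk1 (5.55) and Ctsk (4.70). Its list means were high for valine, isoleucine and propionate breakdown (9.28), lipoproteins (10.04), oxidative phosphorylation (9.14) and endothelial markers (7.17). Dairy array 2 was high for Ifi27 (11.28), dairy array 3 was low in the galactose list (7.32), and dairy array 4 was low for Gngt2 (5.74) and high for Bcat2 (5.31).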

How the results depend on the processing

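No probe set passed an adjusted p of 0.05 in any of the alternatives except the fit with the replicate block, which called 1, Ifi27l2b, lower with leucine (difference -1.80, limma adjusted p = 0.0218). It was 0 as each array was left out in turn. The 1064 probe sets at an unadjusted p under 0.05 became 1819 over all probe sets in the file and 2147 with array weights, and 695 (without leucine 2) to 1443 (without dairy 4) as single arrays were left out. The 779 probe sets without overlap became 1437 over all probe sets and 1257 without both arrays of narrowest spread, an alternative chosen after seeing the data, and 1050 to 1658 as single leucine or dairy arrays were left out, where fewer values must be apart. Of 121 genes, 114 kept the direction of their difference under every alternative run. Acaca became -0.0451 after quantile normalization, -0.0813 with acute phase genes as a covariate and -0.0020 without both narrow arrays. Pdk4 became -0.00951 after quantile normalization and -0.165 with the covariate. Pck1 became 0.0331 with median centring and 0.13 with array weights, and Fgf21 became 0.12 with array weights. With single arrays left out, differences ran from -0.19 to 0.28 for Acaca, -0.94 to 0.0947 for Fasn, -0.86 to 0.50 for Scd, -0.54 to 0.54 for Pdk4, -0.39 to 0.46 for Pck1 and -2.48 to 0.0919 for G6pc1. The cause of these changes was not tested. Of 45 list medians, 21 kept their sign under every alternative.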

Other observations

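Other gene groups gave small differences with few genes passing at an unadjusted p under 0.05. Of 38 genes of autophagy and lysosome, 24 were higher with leucine and 3 passed, all higher. Without dairy array 3, 21 were higher and 17 lower, 1 passed higher and 2 lower, and the median was 0.03, against 0.14 with all arrays. Ctsk, a collagen-degrading cathepsin, had 5.24, 5.43, 5.46 and 5.31 with leucine, against 4.70, 4.94, 4.97 and 4.97 with dairy, and Lamp2, a lysosomal membrane protein, had 10.18, 10.30, 10.24 and 10.25 with leucine, against 9.97, 9.75, 8.91 and 10.12 with dairy. Neither gene's groups overlapped. Of 68 oxidative phosphorylation genes, 36 were higher and 32 lower, or 26 and 42 without leucine array 1. Values without overlap were found for 2 of the 68 in the lower direction and 1 in the higher. Those counts are near the background shares of 2.76% and 2.02%. Uqcrq, a small subunit of complex III, was among the lower ones, at -0.43 ± 0.17 (SE). Cell cycle genes were higher in 10 of 33, clock genes in 8 of 16, calcium and vitamin D genes in 8 of 17 and NRF2 targets in 17 of 31, with at most 1 passing in each. Clock genes were higher in 12 of 16 without leucine array 3 or 4 and in 6 without dairy array 2 or leucine array 2. Acute phase plasma proteins were higher in 7 of 24 and chaperones of the unfolded protein response in 9 of 25, with none passing. Acute phase genes were higher in 20 of 24 without leucine array 1 and in 14 without dairy array 4. The chaperones were higher in 2 of 25 without dairy array 3 and in 13 without dairy array 4.

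Pancreatic genes were dim, as is usual for liver, with 1 exception. Ins1 and Ins2, the insulin genes of the rat, read 6.79 and 6.86 on dairy array 1. On the other 3 dairy arrays Ins1 read 4.45 to 4.84, and on the leucine arrays 4.23 to 4.60. Ins2 read 4.84, 5.26 and 4.38 on the other dairy arrays and 4.35 to 4.92 on the leucine arrays. The mean of the pancreatic list was 4.33 on dairy array 1 and 4.40 on dairy array 3. Dairy 1 was also the dairy array that reached the leucine range for Acadsb, Aldh6a1, Cth, Cdo1, Ugt2b1 and Cyp2e1. Any link of those genes with the insulin signals was not tested. Cpb1, a pancreatic carboxypeptidase, was lower on dairy arrays, at 3.28 to 4.00, than on leucine arrays, at 4.20 to 4.98.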
